A study of Mus musculus with 6 samples.

Results

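The Meis, Pbx and Pknox genes encode cofactors of Hox proteins. Here 8 of them (Meis1, Meis2, Meis3, Pbx2, Pbx3, Pbx4, Pknox1 and Pknox2) were followed in whole mouse pancreas at E12.5. They were read from every probe set to which the platform annotation gives one of these symbols and no other, 20 of 45037 probe sets in all. There were 3 control arrays, from wild type Bl6 embryos, and 3 Hox6 null arrays, also labelled Bl6. The labels do not give the alleles behind "Hox6 null", the part of each gene removed, the number of embryos in a sample, or their sex. RNA came from frozen pancreata and was amplified from 10 ng of total RNA. The labels call the samples biological replicates without naming litters, so the p-values below speak only of the spread among these samples.

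The 8 proteins belong to the TALE class, whose homeodomain carries a short loop extension between its first helices. Pbx proteins bind DNA together with Hox proteins and sharpen the choice of site. Meis and Pknox (Prep) proteins bind Pbx through a domain of their own near the N terminus and hold it in the nucleus. Meis proteins can also bind Hox proteins of the posterior groups directly. In the pancreas, Pbx and Meis proteins also bind with Pdx1, the homeodomain factor of pancreatic progenitors, at the enhancer of an elastase gene, and Meis proteins bind a pancreatic enhancer of Pax6.

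RefSeq promoter entries (GRCm38.p6) were found for 5 of the 8 genes. The 250 bases before the annotated start are printed for the 3 Meis paralogues, the subfamily for which all members have an entry. Differences between the paralogues were not tested. They are written 5′ to 3′ on the strand of the gene, with CG dinucleotides in capitals. The Meis1 stretch lies at chr11:19018970-19019219 (minus strand), that of Meis2 at chr2:116064620-116064869 (minus strand) and that of Meis3 at chr7:16175145-16175394 (plus strand).
Meis1: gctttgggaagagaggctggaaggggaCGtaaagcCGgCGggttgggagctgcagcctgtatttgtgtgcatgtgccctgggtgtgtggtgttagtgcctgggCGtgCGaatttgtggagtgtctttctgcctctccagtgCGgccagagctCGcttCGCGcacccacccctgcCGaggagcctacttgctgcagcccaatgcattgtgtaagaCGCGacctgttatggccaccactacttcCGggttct
Meis2: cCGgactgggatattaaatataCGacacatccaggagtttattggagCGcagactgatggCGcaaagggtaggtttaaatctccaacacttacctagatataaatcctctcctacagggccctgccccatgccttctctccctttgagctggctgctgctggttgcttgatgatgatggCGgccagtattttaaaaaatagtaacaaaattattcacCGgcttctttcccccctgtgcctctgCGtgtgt
Meis3: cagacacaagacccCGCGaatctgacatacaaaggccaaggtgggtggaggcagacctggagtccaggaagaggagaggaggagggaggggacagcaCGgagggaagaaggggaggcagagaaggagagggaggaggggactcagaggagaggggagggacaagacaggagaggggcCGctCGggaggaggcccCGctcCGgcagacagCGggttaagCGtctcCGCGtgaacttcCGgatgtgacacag
The stretches hold 13 CG dinucleotides for Meis1, 7 for Meis2 and 12 for Meis3, where the median over 32851 promoter entries is 6. The Meis and Pknox core TGACAG, the Pbx and Hox composite TGATNNAT and the decameric Pbx and Meis composite, which contains the first of these, were searched on both strands. None of the 5 promoters holds any of them, and of all promoter entries 15.9%, 7.68% and 0.198% do. This says only that these letters are not in these windows.

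The arrays had medians of 5.97 to 6.02 on the log2 scale. Null arrays resembled each other less (Pearson's r across probe sets of 0.980 to 0.987) than control arrays did (0.994 to 0.995). The labelled tissue was borne out by Pdx1, Ptf1a, Nkx6-1, Sox9, Cpa1 and Neurog3, genes of pancreatic progenitors and acinar cells, whose mean level lay between 8.09 and 9.41 in all arrays. Of these Neurog3 was dim, at 5.64 to 6.19 in controls. Liver genes had a mean level of 6.76 to 8.62 over control arrays, highest in control 2, and 6.97 to 7.55 over null arrays. In control 2 the liver mean of 8.62 exceeded the mean of the pancreatic genes (8.09), and in every other array it lay below it. The label "Hox6 null" does not name the targeted genes and was taken to mean Hoxa6, Hoxb6 and Hoxc6. Hoxa6 had no probe set annotated to it alone. Hoxb6 and Hoxc6 did not pass the test. Hoxb6 differed by -0.42 and Hoxc6 by +0.13, with adjusted p of 0.358 and 0.485 (limma, all genes). In both the arrays of the groups overlapped, so the levels of these genes did not bear out the null label. Whether their probe sets lie outside the altered part of the genes was not tested.

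No gene of the group changed past the threshold in Hox6 null pancreas. The clearest differences were in Pknox2 and Meis2, which were lower on average by 0.59 and 0.52 on the log2 scale at their leading probe sets, in every null array but to very different degrees. Averaged over all probe sets of each gene, their differences were smaller, at -0.26 and -0.27. The other Pknox2 probe set differed by +0.07. Meis1 was lower by 0.25 at its leading probe set and higher at another. Pbx2 and Meis3 differed by under 0.1 on average, with Pbx3 slightly lower. Pbx4 was slightly higher, with null 1 alone above the controls at its leading probe set. Pknox1 was lower in all 3 probe sets, with differences from -0.07 at the leading one to -0.32 at 1437470_at, where the groups did not overlap. A leading probe set is the one with the highest mean over the 6 arrays. With limma and Benjamini-Hochberg adjustment over all probe sets, 0 of the 20 probe sets had an adjusted p under 0.05, where 0.00222% of all probe sets did. With 1 probe set per gene, 0 of the 8 genes passed, where 0.0715% of all genes did.

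At an unadjusted p under 0.05 (limma), 3 of the 20 probe sets were lower, where 6.79% of all probe sets were, and 1 was higher, where 8.17% were. Among the 8 genes 2 were lower, where 8.24% of genes were, and 0 higher, where 8.73% were. In 4 of the 20 probe sets all null arrays lay below all control arrays, a state found in 9.89% of probe sets, and in 0 they lay above, which held for 12.1%. The median difference was -0.10 (-0.098) over the 20 probe sets and +0.04 (0.042) over all probe sets. Probe sets of one gene share their transcript, so the 20 are not independent of each other.

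**Figure D1:**
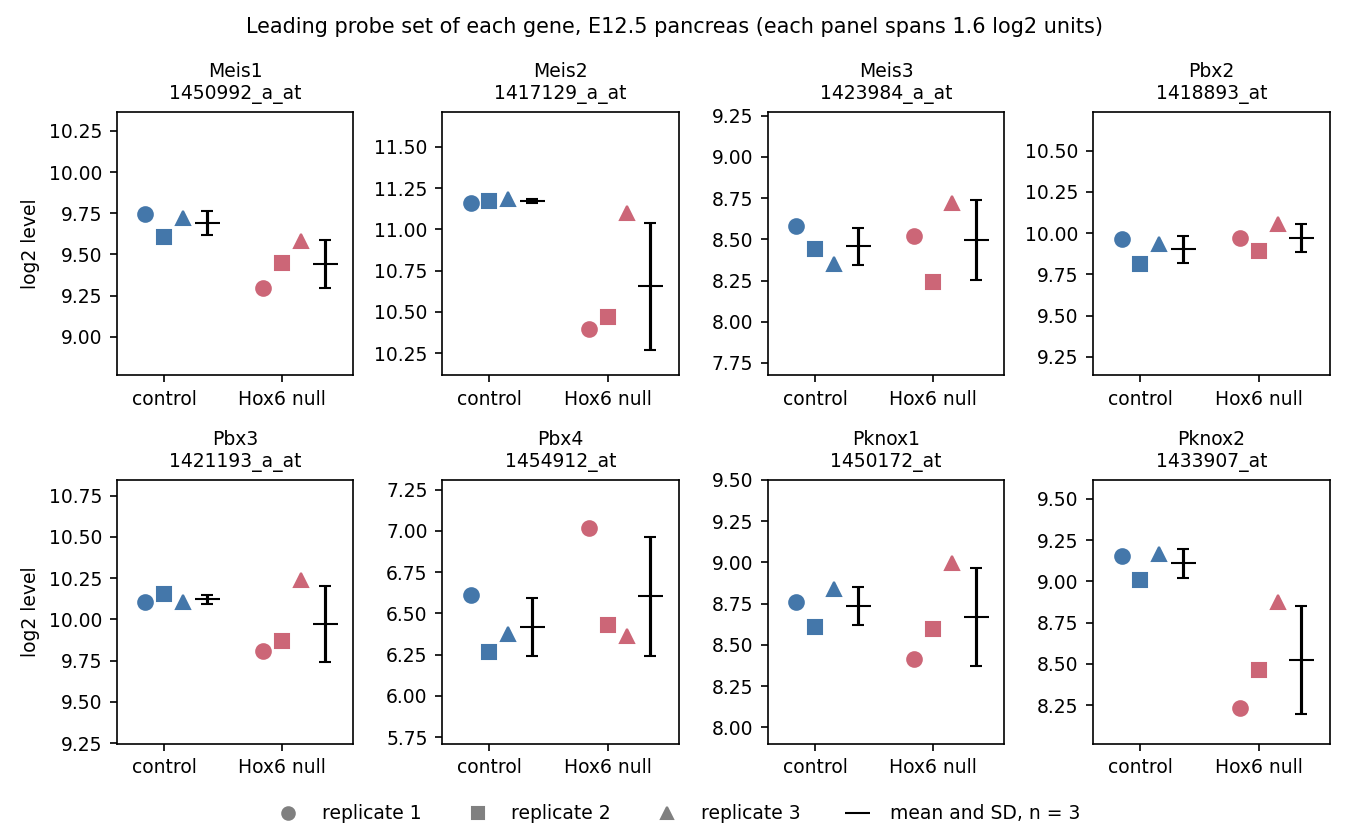
Log2 level of the leading probe set of each of the 8 genes in 3 control arrays (blue) and 3 Hox6 null arrays (red), with replicates as circles, squares and triangles and the mean and SD (n = 3) as black bars. Null replicates 1 and 2 of Meis2 read 10.40 and 10.47 against controls at 11.16 to 11.18, and null replicate 3 reads 11.10.

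Meis2, which is also a partner of Pbx and Pdx1 at the elastase enhancer, was measured by 4 probe sets. Its leading probe set 1417129_a_at read 11.16, 11.17 and 11.18 in the control arrays and 10.40, 10.47 and 11.10 in the null arrays. The groups did not overlap, but null 3 lay 0.07 (0.075) below the control mean, while null 1 and null 2 lay 0.77 and 0.70 below it. The means were 11.17 ± 0.01 (0.011; SD, n = 3) and 10.66 ± 0.39 (SD, n = 3), a difference of -0.52 ± 0.19 (SE) or 1.43-fold, with an adjusted p of 0.286 (limma) and a 95% interval of -0.96 to -0.08 (-0.079).

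The other 3 Meis2 probe sets were lower by less, and in each the arrays of the groups overlapped. The probe set 1457632_s_at read 9.43, 9.39 and 9.44 in controls and 9.12, 9.01 and 9.44 in null arrays, so that null 1 and null 2 were low and null 3 was level with the controls. Its suffix marks probes that may match transcripts of more than one gene. The dimmer 1447861_x_at, whose suffix marks probes that may cross-hybridize, read 6.67 to 6.95 in controls and 6.60 to 6.80 in null arrays. In 1440091_at control 2 stood at 8.68 above the other controls (8.08 and 8.23), and null 1 at 7.75 below the other null arrays (8.31 and 8.34). The differences of these probe sets were -0.23, -0.13 and -0.20, with adjusted p of 0.435, 0.619 and 0.674 (limma).

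Meis1, known for its part with Hoxa9 in blood progenitors and leukaemia, had probe sets that disagreed in direction. The leading one, 1450992_a_at, read 9.74, 9.61 and 9.72 in controls and 9.30, 9.45 and 9.58 in null arrays. All null arrays were below all controls, with null 3 only just below control 2. The difference was -0.25 ± 0.12 (SE) with an adjusted p of 0.364 (limma) and a 95% interval of -0.52 to 0.02 (0.023). The probe set 1459423_at went the other way, with 8.33, 8.82 and 8.38 in controls and 8.78, 8.93 and 8.97 in null arrays. Here control 2 overlapped the null arrays, and the difference was +0.39 ± 0.15 (SE) with an unadjusted p of 0.038 and an adjusted p of 0.313 (limma). The remaining one, 1443260_at, differed by +0.004 (0.0042), with control 2 (8.46) and null 2 (8.54) above the other arrays (8.04 to 8.13). The mean over the 3 probe sets differed by +0.05 (0.048), so no direction can be given for Meis1.

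Meis3, the paralogue known from hindbrain and enteric nervous system, was read by 1423984_a_at alone. Its levels were 8.58, 8.44 and 8.35 in controls and 8.52, 8.24 and 8.72 in null arrays. Null 2 was the lowest and null 3 the highest of all arrays, and the groups overlapped. The difference was +0.04 (0.037) with an adjusted p of 0.920 (limma) and a 95% interval of -0.31 to 0.38.

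**Figure D2:**
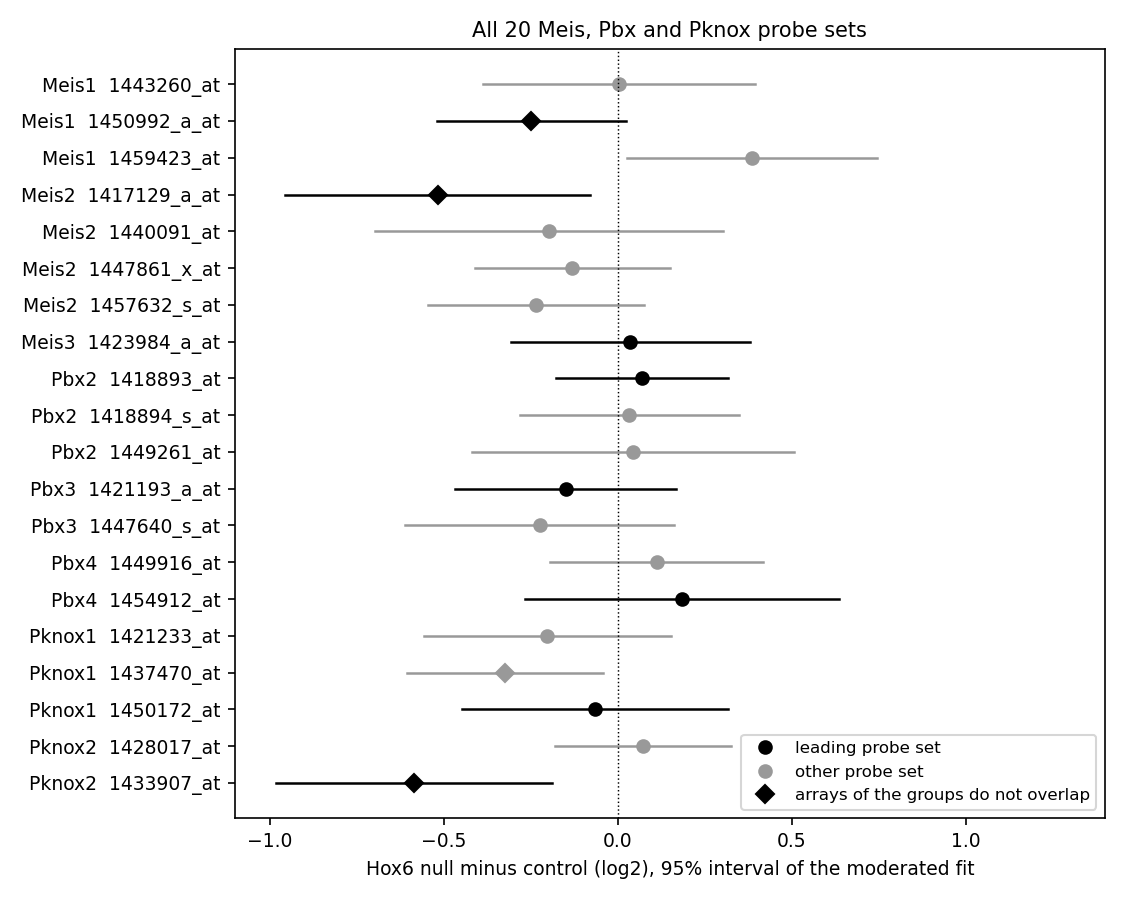
Hox6 null minus control difference on the log2 scale (points) with the 95% interval of the moderated limma fit (lines) for all 20 probe sets. Leading probe sets are black, others grey, and diamonds mark the 4 probe sets in which the arrays of the groups do not overlap, all of them lower in null arrays.

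Pknox2, the Prep paralogue with a more restricted pattern in the embryo, showed the largest mean difference of the 8 genes at its leading probe set. The probe set 1433907_at read 9.15, 9.01 and 9.16 in controls and 8.23, 8.46 and 8.87 in null arrays. All null arrays were lower than all controls, null 1 by most and null 3 by least (0.87, 0.65 and 0.23 below the control mean). The means were 9.11 ± 0.09 (0.086; SD, n = 3) and 8.52 ± 0.32 (SD, n = 3). The difference was -0.59 ± 0.17 (SE) or 1.5-fold, with an unadjusted p of 0.0098, an adjusted p of 0.241 (limma) and a 95% interval of -0.98 to -0.19. The other probe set, 1428017_at, read 5.80 to 5.96 in controls and 5.88 to 6.04 in null arrays, close to the median of all probe sets on these arrays. It differed by +0.07 (0.073) and did not repeat the difference of the leading one.

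Pknox1 (Prep1), which is broadly expressed and stabilises Pbx proteins, was lower on average in all 3 of its probe sets. In 1437470_at the levels were 7.61, 7.69 and 7.56 in controls and 7.31, 7.13 and 7.46 in null arrays. The groups did not overlap there, and the difference was -0.32 ± 0.12 (SE) with an adjusted p of 0.294 (limma). The brighter 1421233_at read 8.64, 8.58 and 8.82 in controls and 8.34, 8.33 and 8.77 in null arrays, with null 3 among the controls and a difference of -0.20. The leading 1450172_at read 8.76, 8.61 and 8.84 in controls and 8.42, 8.59 and 8.99 in null arrays. Null 3 was the highest of all arrays there and null 1 the lowest, and the difference was -0.07 (-0.066) with a 95% interval of -0.45 to 0.32.

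Pbx3, a Pbx protein important in neurons and, together with Pbx2, in limb patterning, had 2 probe sets in the same direction. The leading 1421193_a_at read 10.11, 10.15 and 10.11 in controls and 9.81, 9.87 and 10.24 in null arrays. Null 1 and null 2 were below all controls and null 3 above them. The difference was -0.15 ± 0.14 (SE) with an adjusted p of 0.615 (limma). In 1447640_s_at null 2 was lowest, at 8.58, the other null arrays read 9.04 and 9.16 and the controls 9.05 to 9.24, for a difference of -0.22.

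Pbx2, broadly expressed in the embryo, had small mean differences in all 3 probe sets, of +0.07 (0.070), +0.03 (0.034) and +0.04 (0.045). Its leading probe set 1418893_at read 9.96, 9.81 and 9.93 in controls and 9.97, 9.89 and 10.06 in null arrays, and its 95% interval was -0.18 to 0.32. Both other probe sets spread further within the null group than within the controls: 1449261_at read 8.40, 8.92 and 9.16 in null arrays against 8.62 to 8.91 in controls. Null 1 was the lowest array and null 3 the highest in it.

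Pbx4, known mainly from the testis, had 2 probe sets. The leading 1454912_at read 6.61, 6.27 and 6.38 in controls and 7.02, 6.43 and 6.36 in null arrays. Null 1 alone stood above the controls, and the difference was +0.18 ± 0.19 (SE) with an adjusted p of 0.662 (limma). The other probe set, 1449916_at, read 5.49 to 5.61 in controls and 5.83, 5.76 and 5.44 in null arrays.

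The null arrays did not read alike. Of the 20 probe sets, 13 lay below all controls in null 1, where 30.0% of all probe sets did, and 11 in null 2, where 31.3% did. In null 3 the count was 5, where 28.7% of all probe sets did. Above all controls lay 4 probe sets in null 1, 6 in null 2 and 7 in null 3, where 42.0%, 37.6% and 33.1% of all probe sets did. Of the 7 Pbx probe sets 3, 3 and 4 were above all controls in null 1, null 2 and null 3, of the 8 Meis probe sets 0, 2 and 2, and of the 5 Pknox probe sets 1 in each.

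Markers of the tissue's cell types differed between the arrays as well, and of the lists of epithelium, mesenchyme, endothelium, macrophages, mesothelium, erythroid cells and neural crest only the epithelial one had null 3 at the level of the controls. The mean level of 19 epithelial genes was 8.25 to 8.34 in controls, 9.23 in null 1, 9.09 in null 2 and 8.31 in null 3. Of the 19 genes 17 were higher on average, and of all 18193 genes 10180 were higher and 8013 lower. The mean level of 15 mesenchymal genes was 9.48 to 9.53 in controls and 8.88, 8.97 and 9.17 in null arrays 1 to 3, with 14 of the 15 lower on average. All 12 endothelial and all 12 macrophage genes were lower on average as well, with ranges of their mean levels of 8.31 to 8.47 and 8.49 to 8.57 in controls and 7.70, 7.76 and 8.03 and 7.54, 7.85 and 8.003 in null arrays 1 to 3. The mesothelial list had 5 of 6 genes lower (6.97 to 7.12 in controls and 6.19, 6.15 and 6.39 in null arrays), and the erythroid and megakaryocytic list 10 of 11 (8.37 to 8.41 in controls and 7.86, 7.68 and 8.09 in null arrays). Of the genes of neural crest and neurons, 9 of 10 were higher on average, with mean levels of 6.07 to 6.26 in controls and 6.62, 6.37 and 6.47 in null arrays. The part of these differences in those of the Meis and Pknox genes was not tested. In whole tissue, fewer cells of a type and less RNA per cell cannot be told apart.

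**Figure D3:**
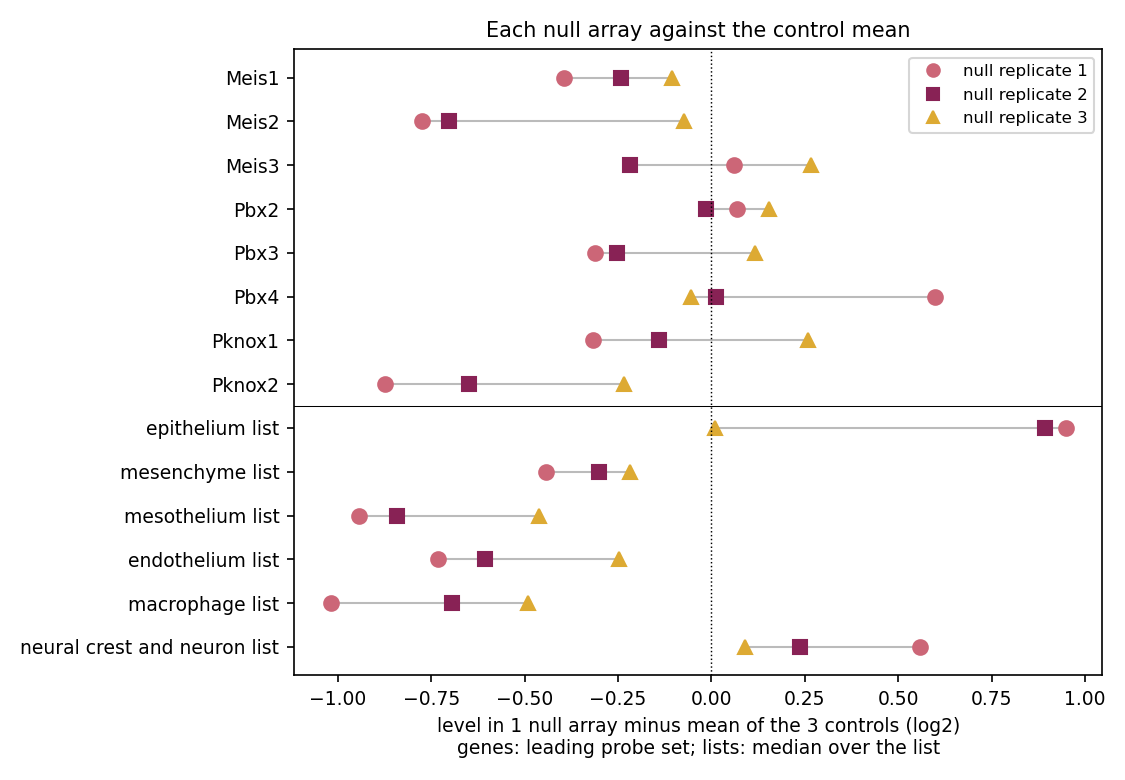
Difference of each null array from the mean of the 3 control arrays, on the log2 scale, for the leading probe sets of the 8 genes (top) and for the median of 6 marker lists (bottom). Null 1 and null 2 lie at -0.77 and -0.70 for Meis2 and at 0.95 and 0.89 for the epithelium list, while null 3 lies at -0.07 (-0.075) and 0.01 (0.010).

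When the epithelial mean entered the model as a covariate, the difference was -0.07 (-0.074) for Meis2 and -0.23 for Pknox2 in place of -0.52 and -0.59, with adjusted p of 0.873 and 0.621 (limma, over all genes). The epithelial mean of null 1 and null 2 lay above all controls, so that this fit rests on null 3 for a null array at the level of the controls. With the mesenchymal mean as the covariate, chosen after seeing the data, the differences were +0.72 and +0.46, where no null array reached the level of the controls and the fit extrapolates. Set against the mean of the mesenchymal list within each array, Meis2 stood 1.65 to 1.68 above it in controls and 1.517, 1.496 and 1.926 above it in null arrays. Pknox2 stood at -0.33, -0.51 and -0.36 in controls and at -0.65, -0.51 and -0.30 in null arrays on the same relative scale. In both the groups overlapped. The other 6 genes were higher relative to the mesenchymal list in all null arrays, with no overlap, as were 74.5% of all genes. Set against the mean of the epithelial list, Meis2 stood 2.82 to 2.92 above it in controls and 1.17, 1.38 and 2.79 above it in null arrays, with no overlap. Pknox2 stood at 0.81, 0.76 and 0.86 in controls and at -0.99, -0.63 and 0.57 in null arrays, again with no overlap. On this scale 3 of the 8 genes (Meis1, Meis2 and Pknox2) were lower in all null arrays, as were 32.1% of all genes. Such ratios show unequal change and not that a gene stayed level.

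Without null 3, Meis2 and Pknox2 passed the threshold. The differences were then -0.74 for Meis2 (adjusted p = 0.0122, limma over all genes, 3 controls against 2 null arrays) and -0.76 for Pknox2 (adjusted p = 0.0186). In that fit 8.44% of all genes passed, and 4.02% of all genes passed as lower. The adjusted p over all genes, which was 0.254 for Meis2 and 0.199 for Pknox2 with all arrays, ranged over all settings tried from 0.0122 to 0.873 for Meis2 and from 0.0186 to 0.621 for Pknox2. Without any one of the other arrays 0 of the 8 genes passed.

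**Figure D4:**
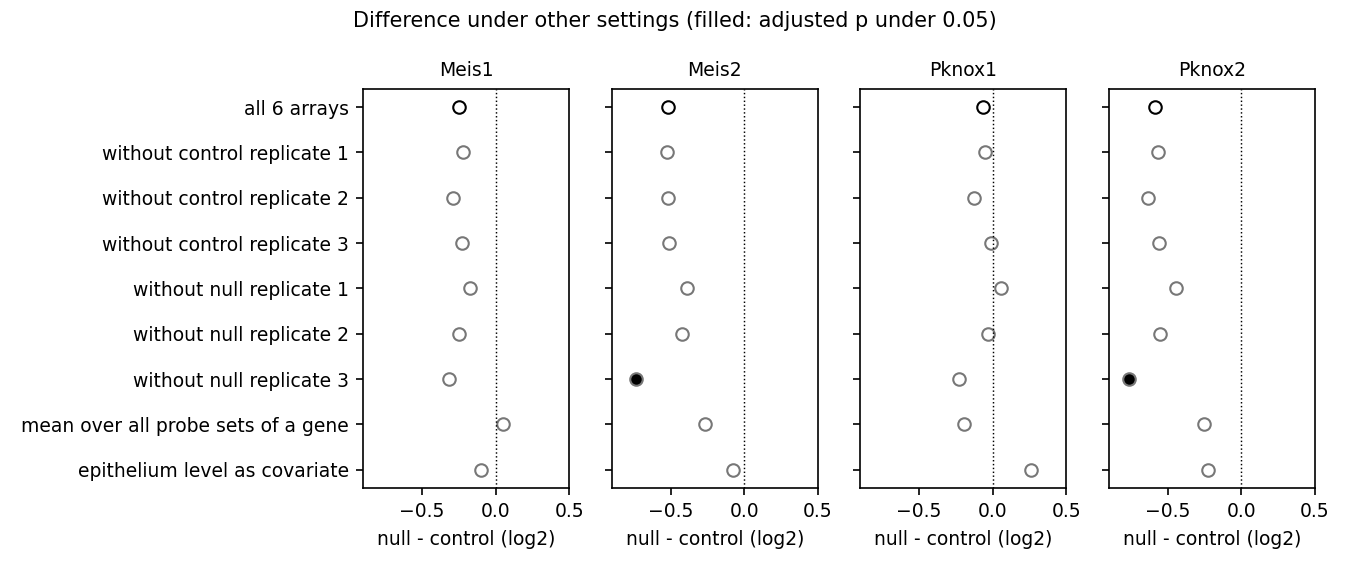
Difference between Hox6 null and control on the log2 scale for the leading probe sets of Meis1, Meis2, Pknox1 and Pknox2 with all arrays, without each array, with a gene's probe sets averaged and with the epithelial mean as a covariate. Filled points have an adjusted p under 0.05, which holds for Meis2 (-0.74) and Pknox2 (-0.76) without null replicate 3.

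The 2 genes with the widest range over the 6 arrays, Pknox2 (0.93) and Meis2 (0.79), were set against 9096 other genes of at least median level. The genes most like Pknox2 by Pearson's r over the 6 arrays were Rasgrp2 (0.998), BC028528 (0.998) and Mpdz (0.996). Those most like Meis2 were Bnc1, Sh3kbp1 and Smarcal1 (0.997, 0.997 and 0.996). With so few arrays, split as described, such values are common: 689 genes exceeded 0.9 with Pknox2 and 687 with Meis2. Bnc1 read 8.44, 8.51 and 8.55 in controls and 7.12, 7.37 and 8.32 in null arrays, the same order of null arrays as Meis2.

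Other TALE homeobox genes were compared from the same fit, with 1 probe set per gene. None of the 9 (Irx1 to Irx6, Mkx, Tgif1 and Tgif2) passed over all genes (limma). At an unadjusted p under 0.05, 2 of 9 were higher and 0 lower, where 8.73% and 8.24% of all genes were, and their median difference was +0.02 (0.015) against +0.03 (0.033) for all genes. Irx1 and Irx2, Iroquois genes that are expressed in endocrine cells of the pancreas, were the 2. Irx2 read 7.03, 6.66 and 7.02 in controls and 7.95, 7.56 and 7.10 in null arrays, and Irx1 6.61, 6.20 and 6.72 in controls and 7.42, 7.53 and 6.71 in null arrays. Both were highest in null 1 and null 2, opposite to Meis2. Their differences were +0.63 and +0.71 with adjusted p of 0.246 and 0.238 (limma, all genes). Irx3 (+0.43) and Irx6 (+0.16) came next by p, and the repressors Tgif1 and Tgif2, which can compete for Meis-type sites, differed by -0.02 (-0.022) and +0.02 (0.015).

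Of 9 partners and known targets of these cofactors, 0 passed over all genes (limma). At an unadjusted p under 0.05, 2 of 9 were higher and 2 lower, where 8.73% and 8.24% of all genes were, with a median of +0.22. Pbxip1, a protein that binds Pbx and keeps it from DNA, read 8.13, 8.25 and 8.12 in controls and 8.47, 8.64 and 8.51 in null arrays. All null arrays were higher than all controls by a similar step, null 3 included, unlike Meis2. The difference was +0.37 ± 0.10 (SE) with an adjusted p of 0.178 (limma, all genes). Pdx1 read 8.62, 8.24 and 8.27 in controls and 9.97, 9.63 and 8.78 in null arrays, a difference of +1.08. Pf4, a megakaryocyte gene regulated by Meis1 and Pbx, differed by -0.86, and Tlx1, a spleen gene that depends on Pbx, by -0.82. Pf4 did not overlap between the groups and Tlx1 did. Pax6, the elastase gene Cela1, the glucagon gene Gcg and the somatostatin gene Sst, with differences of +0.61, +0.59, +0.22 and +0.07 (0.071), all overlapped, as did Nkx2-5 (-0.96).

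Among 31 Hox genes outside the targeted group, the proteins with which these cofactors act, 12 were lower and 19 higher on average. Of all 18193 genes 8013 were lower and 10180 higher. Of the 31 Hox genes 0 passed over all genes (limma). At an unadjusted p under 0.05 the counts were 1 lower and 4 higher, or 5 of 31, where 8.24% of all genes were lower and 8.73% higher. Of the 4 higher genes, Hoxa13, Hoxd3 and Hoxd13 lay below the array median in every array. Hoxa3, with means of 10.65 in controls and 10.92 in null arrays, lay above it, as did the lower gene, Hoxa7. No limit on level was set for this list, so its counts and medians include genes too dim to be called expressed. The median difference of these Hox genes from the control mean was -0.12 and -0.11 in null 1 and null 2 and +0.37 in null 3. In null 3 the leading probe sets of Pbx2, Pbx3, Meis3 and Pknox1 were also at their highest, as were both other Pbx2 probe sets. The other probe sets of Pbx3 and Pknox1 were highest in a control array. In the Pknox1 probe set 1437470_at null 3 lay below all controls.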

How the data were processed

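Whole E12.5 pancreas of 3 control and 3 Hox6 null samples was measured on 1 Affymetrix array each. The deposited series values are on a log2 scale, 1 for each probe set and array. RMA, a method that corrects background, equalises array distributions and summarises probes, stands in the submitters' processing notes beside affy and limma. No version is named, and the genome build is not given in the sources used here. RMA levels depend on which arrays were processed together, and they compress changes of dim probe sets. The number of arrays limits the precision.

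Gene names came from the platform annotation (34945 probe sets with 1 symbol, 932 with several, 9160 with none listed), and 64 array controls were left out. A model with genotype as its single term was fitted with limma 3.58.1 (lmFit, eBayes) in R 4.3.3, two-sided, over 45037 probe sets and over 18193 genes, each through its probe set of highest mean level. Benjamini-Hochberg adjustment was over all of them, with a threshold of 0.05. With 3 against 3 arrays an exact permutation test cannot reach that threshold. The scripts were tested on simulated data. No array repeats another: pairs shared 53 to 166 equal values.

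Genes named are the 8 cofactor genes with all probe sets, the 3 genes most like each of the 2 with the widest range, and up to 4 by smallest p from lists of other TALE genes and of partners and targets; others were named after their values were seen. The genes and lists were chosen with earlier results of these data known. Alternatives changed filter, normalization, centring, variance prior, array weights, replicate block, covariate, threshold, probe set choice and arrays used.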

Additional observations from a re-analysis of the deposited data

How the results depend on the processing

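The count of the 8 genes and of the 20 probe sets past the threshold stayed at 0 under every alternative that used all 6 arrays, and was 0 to 2 for both when single arrays were left out, with 2 reached only without null 3. Over all genes the count was 13 (1 higher, 12 lower) and became 16 with the epithelial covariate (12 higher, 4 lower), 37 with the filter on dim probe sets, 1 with repeated quantile normalization, 8 with array medians subtracted, 74 with an intensity trend and robust prior, 155 with array weights, 88 at a threshold of 0.1 and 0 to 1536 with single arrays left out. Over all probe sets it was 1 (lower) and became 16, 0, 63, 41 and 26 with the filter, quantile normalization, trend, weights and threshold, 10 with the epithelial covariate (9 higher, 1 lower) and 0 to 1902 with single arrays left out. The cause was not tested.

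The replicate block left 0 of all genes past the threshold, 1 probe set, and 0 of the 8 genes. Samples share only a number: deviations of same-numbered arrays correlated at 0.14, 0.005 (0.0049) and 0.06 (0.062), and control 2 correlated best with null 3 (0.05, 0.054). The block changed no other call.

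Some differences turned sign, none of them past the threshold before or after. With the epithelial covariate Pbx3 was +0.12, Pbx4 -0.12 and Pknox1 +0.26. Array weights gave Meis3 -0.09 (-0.090), and the mean over probe sets gave Meis1 +0.05 (0.048). With single arrays left out Meis3 ranged from -0.08 (-0.078) to 0.16, Pbx4 from -0.02 (-0.022) to 0.30 and Pknox1 from -0.23 to 0.06 (0.060). The mean mesenchymal level was added as a covariate after seeing the data. Its values do not overlap between the groups, so that this fit extrapolates: it gave Meis1 +0.19, Meis2 +0.72, Pbx3 +0.60, Pbx4 -0.84, Pknox1 +0.90 and Pknox2 +0.46, with 6 genes and 0 probe sets past the threshold in all. Of 120 such values for the 8 genes, 103 kept their sign and side of the threshold. This count includes values whose sign could not turn. The filter, the variance prior and the replicate block leave each difference itself unchanged, and averaging cannot change Meis3, which has 1 probe set.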
